A study of Mus musculus with 3 samples.

Results

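The chemokine receptor gene Ccr2 and the genes of its 4 monocyte-attracting ligands, Ccl2, Ccl7, Ccl8 and Ccl12, were read in mouse bone marrow-derived dendritic cells. They are 5 of the 18193 genes with a probe set of their own on the array. Every probe set whose single gene symbol in the platform annotation was one of these 5 names was taken. This gave 8 of 34945 probe sets, namely 4 for Ccr2 and 1 for each ligand, and all 8 reached the level for a measured probe set on at least 1 array. That level was an intensity of 78.9, the median of all values. The cells were grown from marrow of female C57BL/6 mice aged 6 weeks, with GM-CSF at 20 ng/mL in every culture, and those floating free on day 7 were collected. They then spent 24 h in PBS (the control group), in LPS at 1 µg/mL, or in an agent that the labels call PTX, at 100 ng/mL. LPS, lipopolysaccharide, is a bacterial cell wall product sensed through Toll-like receptor 4, and PTX is kept here as an abbreviation because the labels do not spell it out. The strain of the PTX sample is entered as C57BL/7. Each of the 3 groups held 1 array, so no difference below has a replicate check, an error or a test, and differences between cultures or marrow donors cannot be told apart from those between treatments.

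CCR2 is a G protein-coupled receptor that draws classical monocytes out of the bone marrow and into inflamed tissue. Its ligands, the monocyte chemoattractant proteins, are small secreted CC chemokines made by many cells after inflammatory or interferon signals. GM-CSF cultures of marrow pass through a monocyte-like stage, and dendritic cells that mature are known to exchange receptors for inflammatory chemokines for CCR7, which guides them to lymph nodes. The study asks, by its title, how the responses to LPS and to PTX differ. Each agent was compared with PBS, which makes these comparisons share the PBS array, and PTX was also compared with LPS.

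Dendritic cells kept with LPS read below the measured level in all 4 Ccr2 probe sets and higher than PBS for Ccl2 and Ccl7, whereas Ccl8 and Ccl12 stayed within 2-fold of PBS. Cells kept with PTX read higher than PBS in all 4 Ccr2 probe sets, each by less than 2-fold on the scale used here, and none of the 4 ligands was 2-fold apart from PBS. Differences are given as log2(intensity + 16), where 16 is a constant added before the logarithm, and 1 on this scale is 2-fold.

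The arrays differed in ways that touch each comparison with LPS. All probe sets together had a median intensity of 85.8 with PBS, 65.4 with LPS and 87.0 with PTX, and 44.7% of probe sets reached the measured level with LPS against 52.5% and 52.8% with PBS and PTX. The 3′ to 5′ ratio of the 18S ribosomal RNA control was 1.95 with LPS against 0.26 and 0.20, whereas that of beta-actin was 1.33 to 1.40 on the 3 arrays. Of 14 dendritic cell markers with a probe set, 11, 11 and 13 reached the measured level with PBS, LPS and PTX, with Cd74, the MHC class II invariant chain gene, highest at its peak (6291, 10839 and 7057). The integrin gene Itgax, which encodes CD11c, read 2383, 1691 and 1294. The part of these array differences in the results was not tested.

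Ccr2 had the lowest reading with LPS in every probe set. Probe set 1421186_at, the brightest of the 4 by mean log2 value, read 2909 with PBS, 71.7 with LPS and 4448 with PTX. Probe set 1421188_at read 3868, 9.95 and 5518 in the same order. Probe set 1421187_at read 643, 22.2 and 1253. The LPS reading lay far below both others in each of these. Probe set 1460067_at, designed from another transcript record, read 267, 49.9 and 441 and thus had the same order. All 4 LPS readings were below the measured level, while the PBS readings were 3.38 to 49.0 times that level and the PTX readings 5.59 to 69.9 times. That level pools the 3 arrays. On the LPS array alone 1421186_at stood at percentile 52.6, above the median of that array. There 1421187_at stood at 17.3, 1421188_at at 5.02 and 1460067_at at 41.6.

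**Figure D1:**
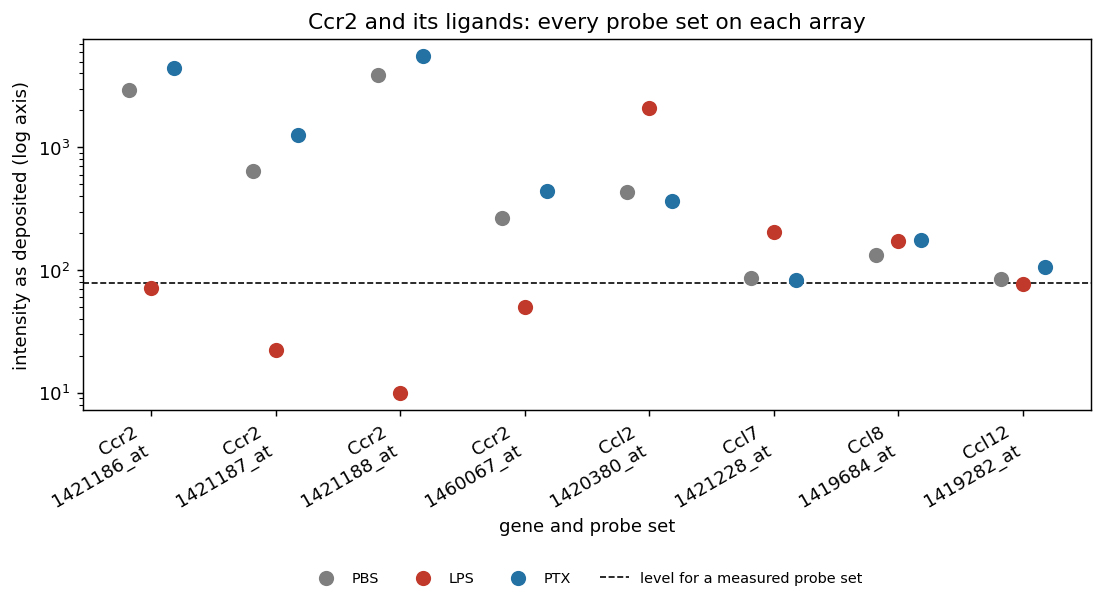
Intensity as deposited (log axis) of each of the 8 probe sets on the PBS, LPS and PTX arrays, 1 point per array, with the measured level of 78.9 as a dashed line. All 4 Ccr2 probe sets sit below the line with LPS and above it with PBS and PTX, Ccl2 and Ccl7 are highest with LPS, and the Ccl8 and Ccl12 points lie close together.

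In LPS against PBS the log2 differences of the Ccr2 probe sets were -5.06 (1421186_at), -4.11 (1421187_at), -7.23 (1421188_at) and -2.10 (1460067_at). All 4 were thus at least 2-fold lower, where 16.3% of the 21805 measured probe sets of the array were, and 6.23% were at least 2-fold higher. Represented by 1421186_at, its brightest probe set by mean log2 value, Ccr2 had the 4th lowest difference of 12299 measured genes. Of these genes 13% were at least 2-fold lower and 6.5% at least 2-fold higher. Of 999 genes with at least 4 measured probe sets, 11 had every probe set at least 2-fold lower, and Ccr2 had the lowest median of the 999. Because its LPS readings were below the measured level, the size of the difference depends on the added constant, and it ran from -5.32 to -4.45 over the settings tried. In bulk cells such as these, fewer cells carrying a transcript and less of it per cell cannot be told apart.

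In PTX against PBS the Ccr2 probe sets differed by 0.61 (1421186_at), 0.95 (1421187_at), 0.51 (1421188_at) and 0.69 (1460067_at). All 4 lay above 0, as did every probe set of 23.8% of the 999 genes with at least 4. None was 2-fold higher, where 2.76% of measured probe sets were, and Ccr2 ranked 857 from the top of the 12299 genes. PTX and LPS cultures therefore stood furthest apart for this gene. In PTX against LPS the 4 differences lay between 2.79 and 7.74, with 5.67 for 1421186_at, the second highest of all genes measured. At least 2-fold higher were 17.3% of probe sets and 13.7% of genes in that comparison, and 15 of the 999 genes had every probe set 2-fold higher.

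**Figure D2:**
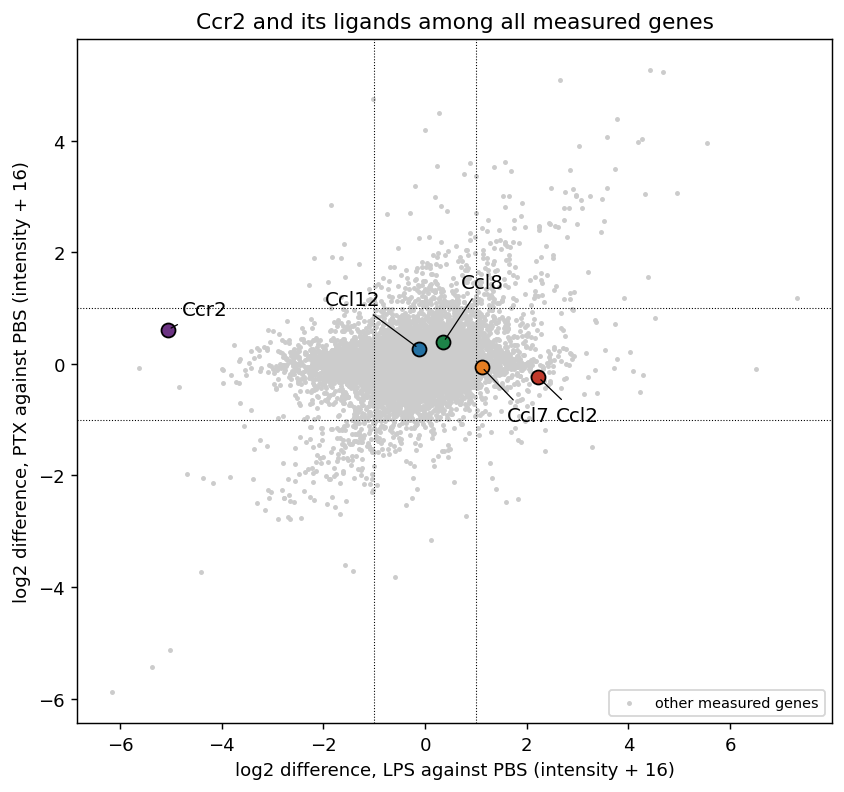
Log2 difference in LPS against PBS (horizontal axis) and in PTX against PBS (vertical axis) of each measured gene, with the 5 genes described here as large coloured points and 2-fold marked by dotted lines. Both axes subtract the same PBS array. Ccr2 lies far to the left at -5.06 and 0.61, Ccl2 and Ccl7 lie past 2-fold on the right, and Ccl8 and Ccl12 lie near the origin.

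Ccr2 lies on chromosome 9 at chr9:124101918-124109140 (assembly GRCm38.p6), in a cluster with Ccr3, Ccr1l1 and Ccr1. The annotated promoter window, 250 bases before to 50 after a transcription start, is shown because this gene had the largest difference. The RefSeq window, chr9:124101933-124102232 on the plus strand, surrounds a start inside the listed span of the gene.
Ccr2 promoter: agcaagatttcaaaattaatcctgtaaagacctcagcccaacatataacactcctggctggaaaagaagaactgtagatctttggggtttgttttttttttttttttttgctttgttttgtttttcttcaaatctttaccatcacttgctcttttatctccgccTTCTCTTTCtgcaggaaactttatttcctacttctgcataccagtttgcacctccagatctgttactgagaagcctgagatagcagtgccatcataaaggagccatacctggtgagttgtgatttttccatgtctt
Both strands were searched for the NF-kB consensus, the interferon regulatory factor core GAAANNGAA, the STAT motif TTCNNNGAA, the AP-1 motif TGANTCA, the TATA box TATAAA and the PU.1 core GAGGAAG. The window holds the interferon regulatory factor core on the minus strand at -86 from the start, in capitals, and none of the others. A longer form of that core, with a further A at its end, was searched first and is not in the window. The shares of 32851 mouse promoter windows with each motif were 8.46% (NF-kB), 8.56% (interferon regulatory factor), 8.30% (STAT), 7.81% (AP-1), 13.6% (TATA) and 13.6% (PU.1).

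Among the ligands, Ccl2 had the largest difference. Ccl2, monocyte chemoattractant protein 1 and the main ligand for CCR2 in monocyte recruitment, read 436 with PBS, 2095 with LPS and 366 with PTX. The LPS array stood above both others, which lay close together. The log2 difference was 2.22 in LPS against PBS, rank 126 from the top of 12299 genes, and -0.24 in PTX against PBS. In PTX against LPS it was -2.47, rank 72 from the bottom, where 6.24% of genes and 6.22% of probe sets were at least 2-fold lower. Over all settings tried the LPS difference lay between 2.11 and 2.55.

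Ccl7, monocyte chemoattractant protein 3, read 86.4 with PBS, 205 with LPS and 82.4 with PTX. The order of the arrays was that of Ccl2, with a smaller step and with PBS and PTX readings just above the measured level. The log2 difference was 1.11 in LPS against PBS, -0.06 in PTX against PBS and -1.17 in PTX against LPS. With a constant of 64 in place of 16 it fell short of 2-fold, at 0.84 in LPS against PBS and -0.88 in PTX against LPS.

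Ccl8, monocyte chemoattractant protein 2, which in mice also acts through CCR8, read 132 with PBS, 174 with LPS and 177 with PTX. LPS and PTX readings lay together above PBS, with log2 differences of 0.36 and 0.39, both within 2-fold. PTX against LPS was 0.03, and -0.31, -0.32 and -0.28 with median centring, quantile normalization and centring on the 75th percentile, so its sign is not settled.

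Ccl12, monocyte chemoattractant protein 5, a mouse ligand for CCR2, read 84.8 with PBS, 76.6 with LPS and 106 with PTX. The 3 readings lie around the measured level, and that with LPS is below it. Within its own array the LPS reading stood at percentile 54.5, against 49.7 with PBS and 55.4 with PTX. The log2 difference was -0.12 in LPS against PBS, and turned to 0.20, 0.21 and 0.17 under the 3 other scalings. In PTX against PBS it was 0.27 and in PTX against LPS 0.39, which shrank to 0.054, 0.045 and 0.090 under the same 3 scalings.

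Of the 5 genes, 2 were thus at least 2-fold higher and 1 lower in LPS against PBS, where 6.5% of all genes were higher and 13% lower. For PTX against LPS 1 was higher and 2 were lower, where 13.7% and 6.24% of all genes were. None was past 2-fold either way in PTX against PBS. For PTX against PBS, 3.04% of all genes passed 2-fold upward and 2.37% downward (2.76% and 2.19% of probe sets), so a set this small with none past 2-fold is near the background. The median of all genes was -0.08 in LPS against PBS, 0.0054 in PTX against PBS and 0.09 in PTX against LPS. Of the genes past 2-fold in LPS against PBS 33.3% were higher as deposited and 56.6% with median centring. In PTX against LPS the same share was 68.7% and 41.8%.

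**Figure D3:**
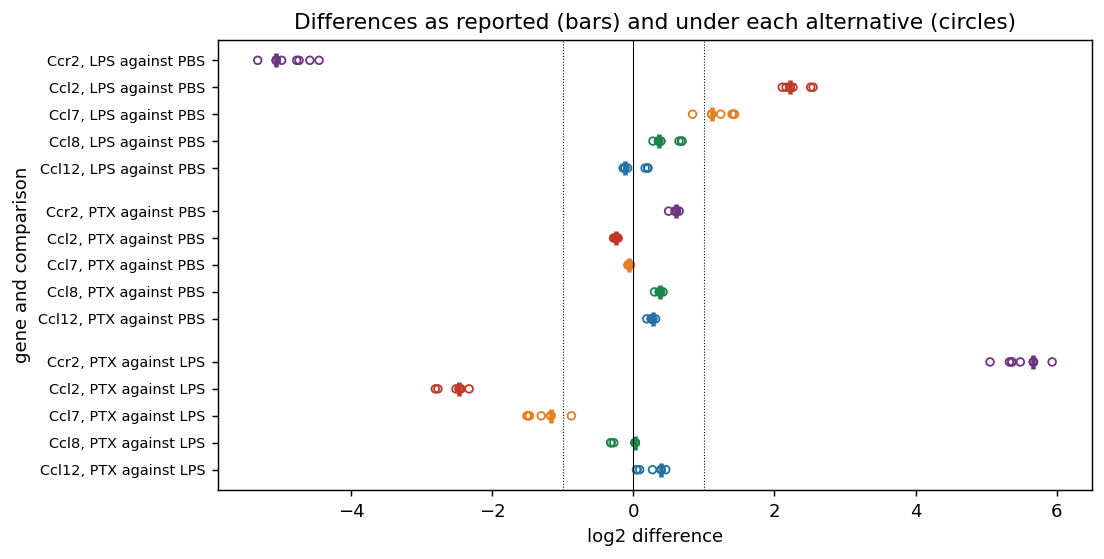
Log2 difference (horizontal axis) of each of the 5 genes in each of the 3 comparisons, as reported (vertical bar) and under each alternative setting (open circles), with 2-fold marked by dotted lines. Ccr2 stays below -4 in LPS against PBS and Ccl2 above 2, whereas Ccl7 crosses the 2-fold line and Ccl12 crosses 0.

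The ligand genes lie in a cluster of CC chemokine genes on chromosome 11, where Ccl2 (chr11:82035577-82037452) is followed by Ccl7 (chr11:82045712-82047525), Ccl11, Ccl12 (chr11:82101845-82103399), Ccl8 (chr11:82115185-82116799) and Ccl1. The ligands past 2-fold with LPS, Ccl2 and Ccl7, are next to each other, and so are those within 2-fold, Ccl12 and Ccl8. The remaining cluster genes, Ccl11 (eotaxin, an eosinophil attractant) and Ccl1, a ligand for CCR8, were below the measured level on all 3 arrays, at 36.8, 31.0 and 27.2 and at 62.4, 46.4 and 50.3 with PBS, LPS and PTX. On chromosome 9, Ccr1, a receptor for Ccl3 and Ccl5, read 3712, 3016 and 3462 and so stayed within 2-fold, whereas Ccr3 and Ccr1l1 read below the measured level on each array. Ccrl2, a non-signalling chemerin-binding receptor further away on the same chromosome, read 561, 1513 and 1212.

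The RefSeq promoter windows of the adjacent ligands Ccl12 (chr11:82101595-82101894) and Ccl8 (chr11:82114935-82115234), both on the plus strand, are shown as the ligand windows that the table used here holds. Capitals mark matches to the motifs named for Ccr2.
Ccl12 promoter: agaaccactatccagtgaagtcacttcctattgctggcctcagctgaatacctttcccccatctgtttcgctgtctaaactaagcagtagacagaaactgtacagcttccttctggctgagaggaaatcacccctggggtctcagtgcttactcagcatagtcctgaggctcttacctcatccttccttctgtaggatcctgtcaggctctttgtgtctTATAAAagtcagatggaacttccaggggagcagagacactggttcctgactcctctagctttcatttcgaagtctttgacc
Ccl8 promoter: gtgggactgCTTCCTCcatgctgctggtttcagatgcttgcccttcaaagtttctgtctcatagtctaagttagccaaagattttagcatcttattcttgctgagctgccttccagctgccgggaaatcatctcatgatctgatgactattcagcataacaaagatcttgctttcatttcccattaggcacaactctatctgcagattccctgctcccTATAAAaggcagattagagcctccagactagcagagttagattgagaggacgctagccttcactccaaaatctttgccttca
Each window holds TATAAA, beginning at -31 in Ccl12 and -32 in Ccl8 relative to the start, and the Ccl8 window also holds the PU.1 core on the minus strand at -241. No other searched motif was found in either, which says only that these letters are not in these windows.

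Other chemokine receptors were read from a fixed list of 14, of which 13 had a probe set and 6 were measured. In LPS against PBS 2 were at least 2-fold higher, 3 lower and 1 within. Of all genes 6.5% were higher and 13% lower there, and 3.04% and 2.37% in PTX against PBS. The median of the 6 with LPS was -0.65 and turned to 0.55 with the measured level set at the 75th percentile. Lower with LPS were the fractalkine receptor gene Cx3cr1, a marker of patrolling monocytes and macrophages (-1.73), the gut-homing receptor gene Ccr9 (-1.55) and Ccr6, the receptor for Ccl20 (-1.01). Ccr6 was within 2-fold in each of the 3 other scalings. Higher were Ccrl2 (1.41) and Ccr7, the lymph node homing receptor gene (1.39), and Ccr1 was within (-0.30). With PTX, Ccrl2 was higher than PBS (1.09), and Cx3cr1 (0.68), Ccr6 (0.70), Ccr7 (0.74), Ccr9 (0.23) and Ccr1 (-0.10) were within 2-fold. Cx3cr1, at 283 with PBS, 74.4 with LPS and 463 with PTX, Ccr6, at 66.3, 24.8 and 118, and Ccr9, at 137, 36.5 and 164, had the array order of Ccr2, as did 25.1% of all measured genes.

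Of 17 other CC chemokines 14 had a probe set and 11 were measured. In LPS against PBS 3 were at least 2-fold higher, none lower and 8 within, with a median of 0.30. Those higher were Ccl5, an attractant of T cells and monocytes (2.29), Ccl3, a ligand for CCR1 (1.81), and the dendritic cell chemokine Ccl22 (1.63). Of all genes 6.5% were higher and 13% lower there, and 3.04% and 2.37% in PTX against PBS. With median centring and 75th percentile centring 4 were higher with LPS, Ccl17 being at 1.13 and 1.10. Ccl6 counted as within (-0.38), but its other measured probe set was at least 2-fold lower with LPS. With PTX, Ccl5 was higher than PBS (1.62), and Ccl17, a ligand for CCR4 (-2.73), and Ccl24, an eosinophil attractant (-1.09), were lower, with a median of -0.07. Ccl3 read 1687 with PBS, 5942 with LPS and 1059 with PTX, the array order of Ccl2, which 18.4% of all measured genes had. Ccl4, Ccl17 and Ccl22 had that order too, as did Ccl25 and Ccl28, whose readings lay close together. Ccl6, Ccl25 and Ccl28 were named after their values were seen. Ccl5, at 3295, 16143 and 10175, was above PBS with either agent, unlike Ccl2 and Ccl7. Ccl4, an attractant of macrophages, differed by 0.52 with LPS and -0.40 with PTX.

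**Figure D4:**
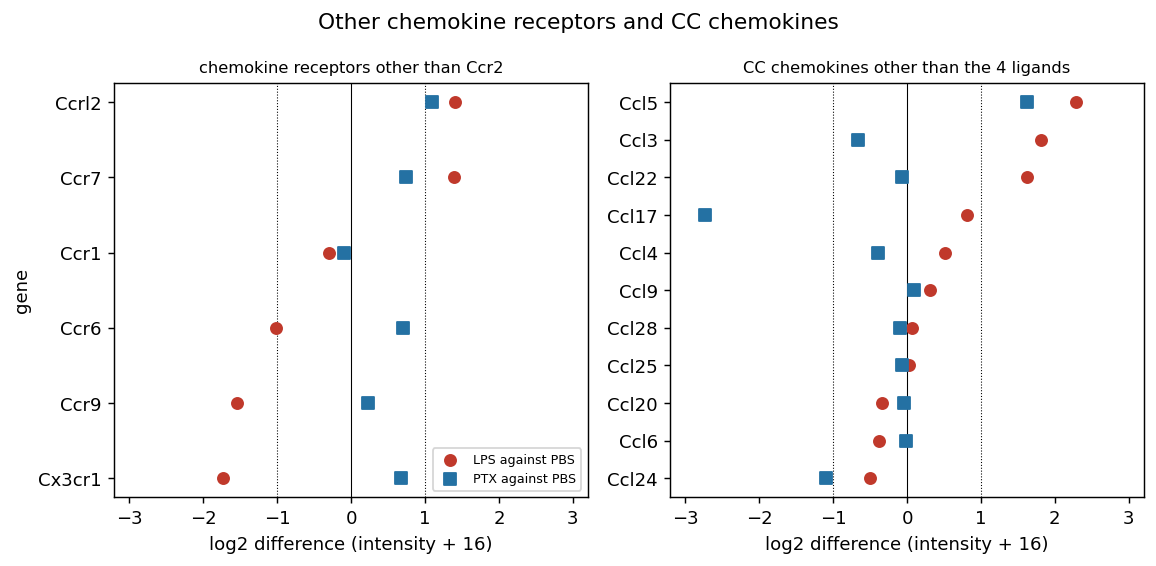
Log2 difference (horizontal axis) of the measured chemokine receptors (left) and CC chemokines (right) outside the 5 genes, with circles for LPS against PBS and squares for PTX against PBS and 2-fold marked by dotted lines. Cx3cr1, Ccr9 and Ccr6 lie lowest with LPS among the receptors, and Ccl5, Ccl3 and Ccl22 lie past 2-fold on the right with LPS among the chemokines.

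The genes that pass on the CCR2 signal run from G protein subunits to Rac and Jak2. Of 17 genes, all measured, 1 was at least 2-fold higher, 2 lower and 14 within in LPS against PBS, shares near those of all genes (6.5% higher and 13% lower; median 0.13, and -0.06 with quantile normalization). Rac2, the Rac GTPase of blood cells, was higher (1.18), but its other measured probe set was not 2-fold higher. Plcb2, a phospholipase C (-1.37), and Dock2, which activates Rac for cell migration (-1.03), were lower. Of the 2 other probe sets of Dock2, 1 was also 2-fold lower. Dock2 was within 2-fold with median centring (-0.71) and with centring on the 75th percentile (-0.74), and Rac2 with quantile normalization (0.90). Vav1, an activator of Rac, differed by 0.89, and by 1.21, 1.06 and 1.18 with median centring, quantile normalization and centring on the 75th percentile. Jak2 differed by 0.76, and by 1.08, 0.47 and 1.05 in the same order. It counted as within as deposited, but its other measured probe set was at least 2-fold higher. Gnai3 counted as within too (-0.15), but its other measured probe set was at least 2-fold lower with LPS. Gnai3 was named after its values were seen. All 17 were within 2-fold in PTX against PBS (median 0.13), where 3.04% of all genes were higher and 2.37% lower. Vav1 was at 0.79 and Stat3 at 0.70, with 1 of the 3 other measured probe sets of Stat3 at least 2-fold higher. In PTX against LPS 3 were higher and none lower as deposited, where 13.7% and 6.24% of all genes were. With median centring 1 was higher and 1 lower.

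Of 14 genes for receptor desensitisation and for binding or cleaving chemokines 13 had a probe set and 12 were measured. In LPS against PBS none was 2-fold higher, 3 were lower and 9 within, where 6.5% of all genes were higher and 13% lower. The median of the 12 was -0.39. With each of the 3 other scalings 2 were higher, and 2 or 4 were lower. The 3 were Ackr1, an atypical receptor that binds Ccl2 without signalling (-1.72), Rgs2, a brake on G protein signalling (-1.50, with all 3 of its other probe sets also 2-fold lower), and the receptor kinase gene Grk5 (-1.27, with its other probe set also lower). Grk5 was within 2-fold with median centring (-0.94) and with centring on the 75th percentile (-0.98). Rgs2 read 3852 with PBS, 1349 with LPS and 4780 with PTX, and Ackr1 read 213, 53.4 and 236, both in the array order of Ccr2. The arrestin gene Arrb1 differed by -0.75 and Ackr4, a scavenger of CCR7 ligands, by 0.77, which became 1.09, 1.05 and 1.06 under the 3 other scalings. Grk3 counted as within in LPS against PBS (-0.18), but 1 of its 2 other measured probe sets was at least 2-fold lower. Mmp14 counted as within there (0.38), but 1 of its 2 other measured probe sets was at least 2-fold higher. Grk3 and Mmp14 were named after their values were seen. Rgs1 was lower in PTX against PBS (-1.11) and 11 were within 2-fold, with a median of 0.04, where 2.37% of all genes were lower.

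Monocyte markers were read from a list of 16, of which 12 had a probe set and all 12 were measured. Ly6c2, which defines classical monocytes, shares its probe set with Ly6c1 and was not analysed here. In LPS against PBS 1 was at least 2-fold higher, 2 lower and 9 within, where 6.5% of all genes were higher and 13% lower. The median of the 12 was 0.11, and -0.14 with quantile normalization. Fn1 counted as within (-0.57), but its other measured probe set was at least 2-fold lower with LPS. Fcgr1, the high-affinity Fc receptor for IgG, was higher (2.73), Klf4, a transcription factor of monocyte development (-2.47), and Cx3cr1 (-1.73) were lower, and Cd14 was within (0.90), but past 2-fold with median centring (1.22) and centring on the 75th percentile (1.19). Csf1r, the receptor for macrophage colony-stimulating factor, read 9043, 12166 and 11151 with PBS, LPS and PTX, and the integrin gene Itgam, which encodes CD11b, read 3240, 2968 and 3340. These 2 were chosen after their values were seen and support no contrast with Ccr2. Fcgr1 was also higher in PTX against PBS (2.79), and 9 were within 2-fold (median -0.02). F13a1, the coagulation factor XIII gene of monocytes (-2.40), and Klf4 (-1.31) were lower. Of all genes 3.04% were higher and 2.37% lower in PTX against PBS.

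**Figure D5:**
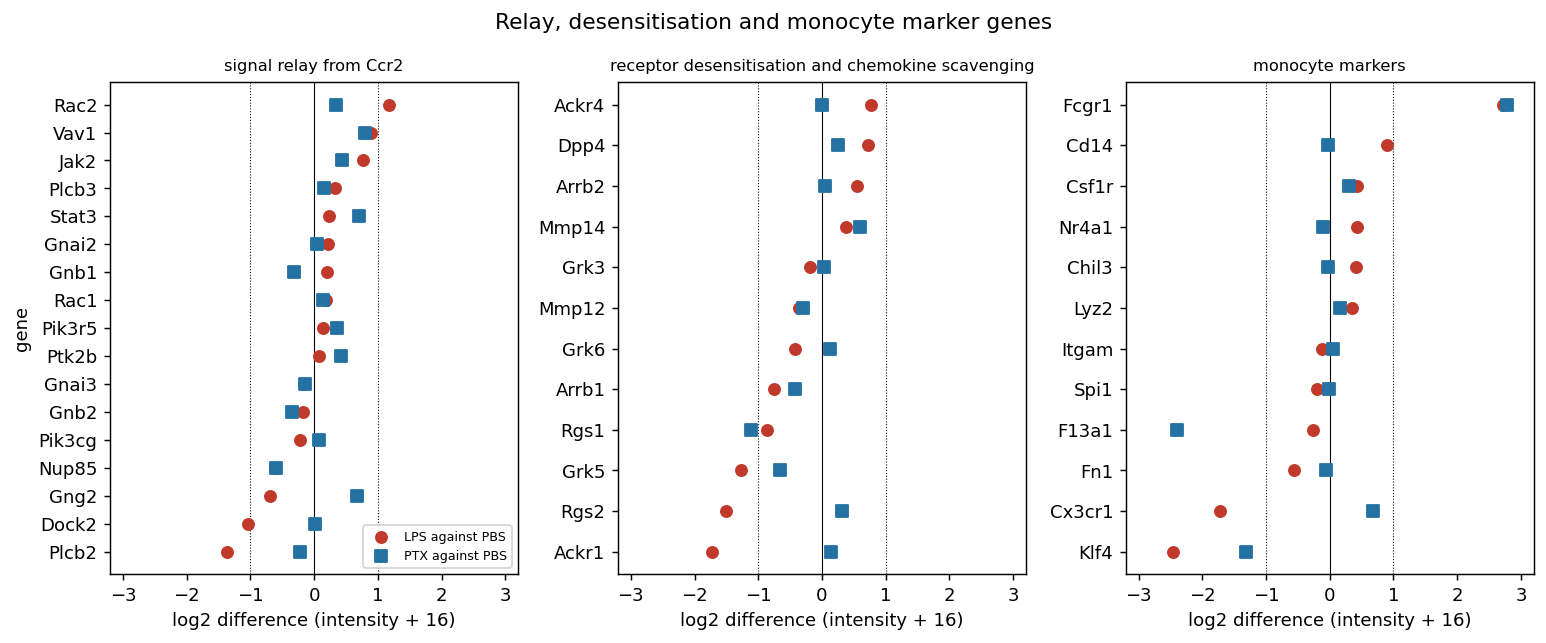
Log2 difference (horizontal axis) of the measured genes of the CCR2 signal relay (left), of receptor desensitisation and chemokine scavenging (middle) and of the monocyte markers (right), with circles for LPS against PBS and squares for PTX against PBS and 2-fold marked by dotted lines. Most relay genes lie between the lines, Ackr1, Rgs2 and Grk5 lie to the left with LPS, and Fcgr1 lies past 2-fold with either agent.

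Markers of other cells that a marrow culture could hold moved between the arrays too. Of 10 macrophage markers 8 were measured, and their list summed to an intensity of 13022 with PBS, 19211 with LPS and 24148 with PTX. In PTX against PBS 2 of the 8 were at least 2-fold higher and none lower (median 0.86), where 3.04% and 2.37% of all genes were. In LPS against PBS 2 were higher and 1 lower, where 6.5% and 13% of all genes were. The median there was -0.39 although the sum was higher, and Mrc1, the mannose receptor gene, read 94.0 against 441. In PTX against LPS 6 of the 8 were at least 2-fold higher and none lower (median 1.55), where 13.7% and 6.24% of all genes were. These counts are as deposited, and the split of all genes past 2-fold in PTX against LPS changed with the scaling. The brightest at its peak was Adgre1, which encodes F4/80, at 2898, 7695 and 4834, and the dimmest was Vsig4 at 24.8, 23.0 and 25.5. Of 7 neutrophil markers with a probe set 4, 4 and 3 reached the measured level, with sums of 10443, 11908 and 5441. S100a8 was the brightest (6074, 9306 and 4007), and the granule gene Elane was below that level on each array. Of the 5 measured, 1 was at least 2-fold higher in LPS against PBS, namely Camp (70.7, 259 and 37.7). Although the sum was higher with LPS, 2 were at least 2-fold lower. These were S100a9 (3877, 1924 and 1083), just past 2-fold, and Ltf (97.3, 38.6 and 78.6). Mast cell and eosinophil markers summed to 593, 2031 and 285, with Prg2, the eosinophil major basic protein gene, at 117, 1274 and 31.4. Siglecf, an eosinophil lectin gene and the brightest of that list with PBS, went the other way with LPS (250.2, 43.9 and 63.1), and Mcpt1 was below the measured level throughout. Erythroid and megakaryocyte markers summed to 5509, 6295 and 5669, almost all from Pf4 (5351, 6024 and 5523). Plasmacytoid dendritic cell markers summed to 1361, 8979 and 5023, led by Bst2 (783, 8735 and 4103), which is also an interferon-induced gene. Tcf4, a transcription factor of these cells, was lowest with LPS (452, 126 and 787), and Siglech, the defining marker, was below the measured level on each array. Stromal markers summed to 510, 698 and 488, with Dcn higher with LPS (40.8, 373 and 52.5) and Cxcl12 lower (170, 25.3 and 152). T cell markers summed to 456, 387 and 511, NK cell markers to 276, 354 and 371 and B cell markers to 173, 135 and 159. No B cell marker was at the measured level. Itgax, Mrc1, Camp, S100a9, Ltf, Siglecf, Tcf4, Dcn and Cxcl12 were named after their values were seen. No marker was listed at 0, since the lowest value in the table is 1. The part of these shifts in the differences of Ccr2 and its ligands was not tested.

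The 3 genes nearest to each of the 5 were found by the distance between their pairs of differences in LPS and in PTX against PBS, over the 3 arrays. The nearest to Ccr2 were Rpl39, a ribosomal protein gene (distance 0.89), Opcml, a cell adhesion gene (1.04), and Gli2, a hedgehog pathway transcription factor (1.27). No gene lay within 0.5 of Ccr2. Rpl39 read 4933, 83.9 and 4709 in its only probe set, and the other probe set of Opcml, below the measured level, differed by -0.27 with LPS, so neither had a further measured probe set that was also lower. Gli2 had one, at -2.32 with LPS. The nearest to Ccl2 were Rcl1, a gene of ribosomal RNA processing (0.06), Zbtb32, a zinc finger repressor (0.07), and 2810410L24Rik (0.12), with 77 genes within 0.5. The other measured probe set of Zbtb32 went the opposite way with LPS (-1.72). Around Ccl7, Ccl8 and Ccl12 lay 780, 2976 and 4695 genes within 0.5, the nearest being Ppp1r10, 4930542D17Rik and 4932431P20Rik for Ccl7, Map3k2, Rtf2 and Filip1 for Ccl8, and Mettl9, Mxi1 and Sugt1 for Ccl12. Such counts fall with the size of a difference, so they mainly restate how far each gene lies from no difference.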

How the data were processed

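RNA from 3 cultures was hybridized to Affymetrix arrays, starting from 3 µg of total RNA per the labels' protocols. The authors deposited linear intensities, 1 for every probe set of each array, none under 1. How the probes were summarized, background-corrected and scaled is not given in the sources used. The precision is limited by the number of arrays.

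Of 45101 probe sets, 64 controls, 932 with several gene symbols and 9160 with none listed were left out of gene comparisons. Differences were taken of log2(intensity + 16), which shrinks those of dim probe sets. The probe set brightest on average (mean log2 value) stood for a gene, which counted as measured when it reached 78.9 on at least 1 array. A difference of at least 2-fold was counted, with no test, since each group has 1 array. Positions and promoters are those of RefSeq, GRCm38.p6, and promoter entries matched Ccr2, Ccl8 and Ccl12 but not Ccl2 and Ccl7.

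Genes named are the 5, their 3 nearest genes each, up to 6 per list with the largest differences, cluster neighbours and the brightest and dimmest markers, plus those said to be chosen after their values were seen. The 5 genes and the 5 lists were chosen with earlier results of these data known. Of 9 alternatives, pseudocounts were 1 and 64, scalings were median, quantile and 75th percentile, and the others changed the representative probe set or the filter. The code, in Python 3.11.15 with pandas 2.3.3 and numpy 2.4.6, was tested on simulated data.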

Additional observations from a re-analysis of the deposited data

How the results depend on the processing

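Of the 15 differences of the 5 genes, 11 kept their direction and their side of 2-fold under every alternative run, namely all 3 of Ccr2 and of Ccl2, and the others of Ccl7, Ccl8 and Ccl12. The 2-fold mark stood in for a test. With a pseudocount of 64 Ccl7 fell within 2-fold (0.84 in LPS against PBS, -0.88 in PTX against LPS), by the construction of that setting, which shrinks dim values. With median centring, quantile normalization and 75th percentile centring, Ccl12 in LPS against PBS turned to 0.20, 0.21 and 0.17, and Ccl8 in PTX against LPS to -0.31, -0.32 and -0.28. The cause was not tested. Genes at least 2-fold higher in LPS against PBS numbered 1397 with median centring and 1305 with 75th percentile centring, against 799. Those lower numbered 1019 with a pseudocount of 64 and 775 with the filter at the 75th percentile, against 1601. In PTX against LPS, 1101 (pseudocount of 64), 1093 (median centring) and 883 (stricter filter) were higher, against 1681, and 1522 (median centring) and 1404 (75th percentile centring) were lower, against 767. The filter at the 75th percentile left out 3 of the 5 genes, Ccl7, Ccl8 and Ccl12, which have no value there. Of the medians of the 5 lists under the alternatives, 14 changed sign while within 2-fold and 1 passed 2-fold. No paired analysis was possible because each group has 1 array. Readings at or below the measured level, such as those of Ccl12 and of Ccr2 with LPS, limit how far a fold can be read.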
